A study of Rattus norvegicus with 6 samples.

Results

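Condensins and type II topoisomerases fold and disentangle chromosomes in dividing cells, and their transcripts were compared here between replicating and quiescent rat β-cells. The group comprised 10 genes taken by name from the array annotation, namely *Smc2*, *Smc4*, *Ncapd2*, *Ncapg*, *Ncaph*, *Ncapd3*, *Ncapg2*, *Ncaph2*, *Top2a* and *Top2b*. Of these, 8 had a probe of that name, with 14 probes in all among 45598 non-control probes for 36174 array gene names. *Ncapd2* and *Ncapg* had no probe so named, but probes that the array annotation ties to their transcripts by description were present. Those probes, and another such probe each for *Ncaph* and *Ncapg2*, make 4 further probes that are given separately.

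Condensins are ring-shaped ATPases that compact chromatin into mitotic chromosomes by extruding loops of DNA. Condensin I and condensin II share the SMC2 and SMC4 core and differ in their kleisin and HEAT-repeat subunits, which are NCAPH, NCAPD2 and NCAPG in condensin I and NCAPH2, NCAPD3 and NCAPG2 in condensin II. Topoisomerase II passes 1 DNA duplex through a transient break in another, which unlinks sister chromatids. Its α isoform (*Top2a*) is characteristic of dividing cells, whereas the β isoform (*Top2b*) is also made in resting and differentiated cells. Adult β-cells divide rarely, so that few cells of an islet are in cycle at any time.

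β-cells were sorted from 3 islet preparations, each pooled from 4 male young adult Wistar rats. Both groups came from the same islets, cultured overnight at basal glucose with the thymidine analogue EdU from the day of isolation, dispersed, stained with the zinc dye Newport Green, fixed and permeabilised. Cells were gated on size, granularity and Newport Green, and EdU-positive (replicating) and EdU-negative (quiescent) cells of each preparation were collected, which gave 3 arrays per group and 6 arrays in all. EdU marks cells that made DNA during the labelling, so a replicating sample can hold cells at any later stage of the cycle, and the EdU-negative sample can hold cells in cycle that were not in S phase. The cells were sorted in bulk, so that fewer expressing cells and less RNA per expressing cell cannot be told apart.

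Each array measured amplified cDNA in 1 colour (Cy3). Values are the deposited log2 intensities, which are background corrected and quantile normalized, and a log2 ratio is replicating over quiescent within a preparation. The intensities of different probes are not used to compare transcript levels, since probes differ in binding. A probe is called higher or lower where limma, with the preparation as a block, gave an unadjusted p no larger than 0.05 and the log2 ratio was 1 or more in size, which is the selection used by the study. The arrays were not alike within the quiescent group: over all probes Pearson's r was 0.967 to 0.986 between replicating arrays and 0.654 to 0.867 between quiescent arrays. The quiescent array of preparation 2 stood farthest from the others and carried 1583 spots marked as outliers, whereas the quiescent array of preparation 3 had an r of 0.943 to 0.969 with the replicating arrays. No spot was saturated, and all 18 member and further probes were well above background on all 6 arrays.

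Most of the group was higher in the replicating β-cells. Of the 14 member probes, 8 were called higher and 0 lower, where 4.44% of all probes were called higher and 4.18% lower. These 8 probes belonged to 6 of the 8 genes: *Smc2*, *Smc4*, *Ncaph*, *Ncapd3*, *Ncapg2* and *Top2a*. With the brightest probe of its name standing for each gene, 5 of 8 were called, because the brightest *Smc4* probe was not. Of all genes 4.26% were called higher and 4.59% lower. The further probes of *Ncaph* and *Ncapg2*, outside this count, had higher means than the brightest named ones, 9.34 against 8.93 and 9.38 against 9.15. The median log2 ratio of the member probes was 1.73, and that of all probes was -0.07. The member median was 1.95, 1.62 and 1.21 in preparations 1, 2 and 3. An unadjusted p of at most 0.05 was reached by 10 member probes, as by 9.61% of all probes, and all 10 of them had a ratio above 0. On 10 member probes every replicating array read above every quiescent array, which held for 9.01% of all probes. After Benjamini-Hochberg adjustment over all probes 0 of 45598 had an adjusted p under 0.05 in limma, at a smallest adjusted p of 0.0977, although 4380 had an unadjusted p of at most 0.05.

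**Figure D1:**
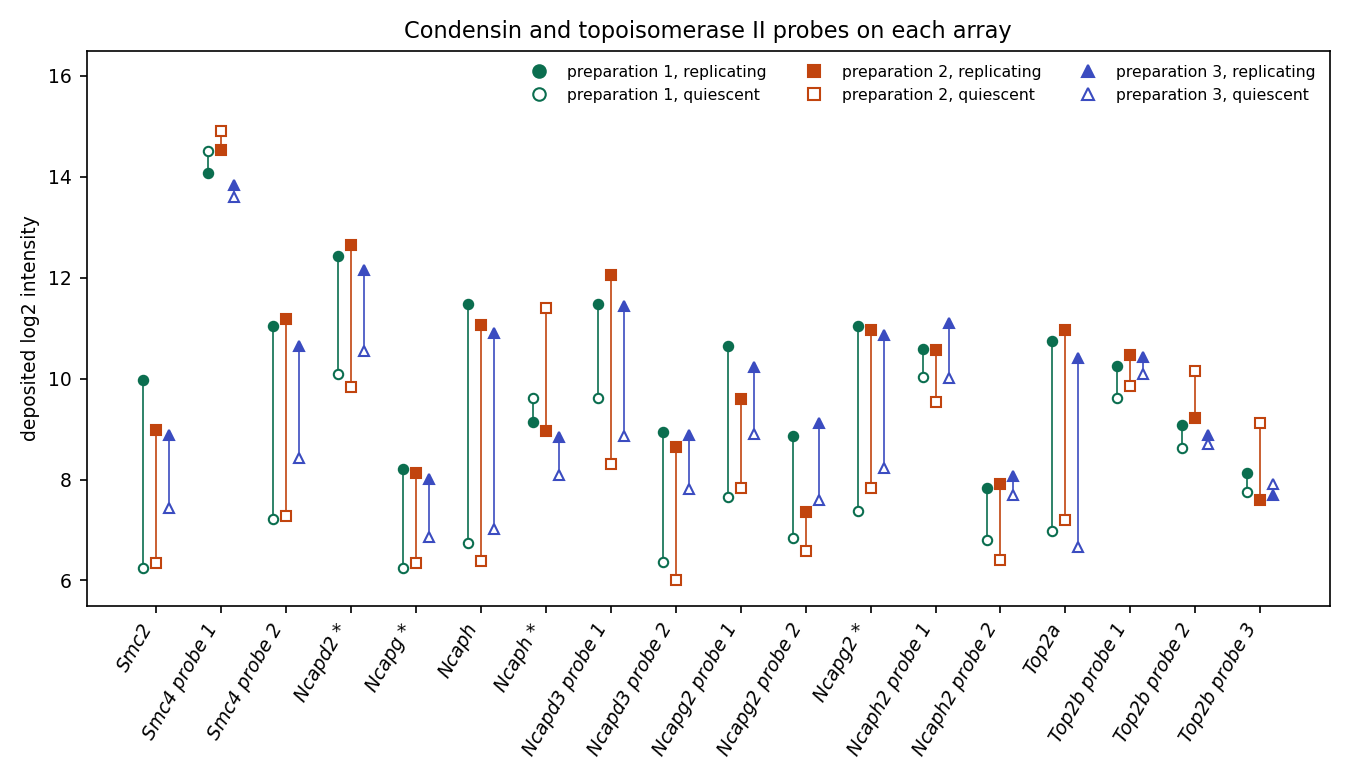
Deposited log2 intensity (vertical axis) of every member probe and of the 4 further probes (marked with an asterisk) on the 6 arrays, with filled symbols for replicating and open symbols for quiescent β-cells and a line joining the arrays of 1 preparation. Probes of 1 gene are numbered from the brightest; *Top2a* and the named *Ncaph* probe read 6.38 to 7.19 in quiescent and 10.42 to 11.48 in replicating cells, whereas the brightest *Smc4* probe read 13.61 to 14.91 with both groups overlapping.

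*Top2a*, the α isoform, showed nearly the same difference in every preparation. In preparations 1, 2 and 3 its log2 intensity was 10.74, 10.96 and 10.42 in replicating cells and 6.99, 7.19 and 6.66 in quiescent cells. The groups were far apart, and within each group the arrays lay within a narrow band. The quiescent value of preparation 3 lay little above 6.31, the dimmest signal that counted as well above background on that array. The ratio was 3.75, 3.77 and 3.76 in the 3 preparations, and limma gave 3.76 with a standard error of 0.30 (13.6-fold; unadjusted p = 4.8e-05, adjusted p = 0.0977). By unadjusted p the *Top2a* probe ranked 21 among all probes. The probe lies on the minus strand at chr10:87771459-87771518 of the rat build rn4. *Top2a* and *Ncaph* are in the list of top genes that the study chose on these same arrays, so their high values are not independent of that choice.

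*Top2b*, the β isoform, was not called on any of its 3 probes. On its brightest probe it read 10.26, 10.47 and 10.43 in replicating and 9.62, 9.86 and 10.10 in quiescent cells. The groups did not overlap there, but the gap was small, with a log2 ratio of 0.53 and a standard error of 0.31 (limma unadjusted p = 0.146). On the remaining probes limma gave ratios of -0.10 (standard error 0.40, unadjusted p = 0.812) and -0.46 (standard error 0.46, unadjusted p = 0.365). Both read highest on the quiescent array of preparation 2, at 10.16 and 9.13, and both had a ratio above 0 once that preparation was left out, of 0.32 and 0.079. All 3 probes are placed on chr15_random in rn4, and the distances between them are the same on the transcript and on that sequence, 884 and 1373 bases from the brightest probe. For comparison, the *Ncapd3* probes are 4438 bases apart on the transcript and 49228 on the chromosome.

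The difference between the isoforms was larger than its spread over the preparations. *Top2a* exceeded *Top2b* by 3.12, 3.16 and 3.43 on the log2 ratio scale, with a mean difference of 3.23 ± 0.17 (SD, n = 3 preparations, brightest *Top2b* probe). With the other *Top2b* probes the mean difference was 3.86 ± 0.75 and 4.22 ± 0.99. The exact sign-flip permutation test over 3 preparations, two-sided, gave p = 0.25, the smallest it can give, and the Benjamini-Hochberg value over the 4 pairs of counterparts compared was 0.5.

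The promoters of both isoforms were searched for letters of known promoter elements. The windows searched run from 250 bases before to 50 after each RefSeq gene start on the build GRCr8, and all 10 genes had one. The CHR, bound by cell-cycle repressor and activator complexes, was searched as TTTGAA or TTCGAA, of which TTCGAA is its own reverse complement. The CCAAT box, bound by NF-Y, was searched as CCAAT. Matches were counted on both strands, and none of the CHR matches overlapped a CCAAT match. The bases just before the start are shown in the direction of the gene for the *Top2a* and *Top2b* pair, with CHR and CCAAT letters in capitals (TTCAAA and ATTGG are matches on the opposite strand).
Top2a, GRCr8 chr10:84473094-84473258, minus strand: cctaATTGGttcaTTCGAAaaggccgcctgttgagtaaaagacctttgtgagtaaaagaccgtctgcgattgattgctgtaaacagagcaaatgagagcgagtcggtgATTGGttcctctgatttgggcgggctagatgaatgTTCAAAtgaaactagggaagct
Top2b, GRCr8 chr15:11542465-11542629, minus strand: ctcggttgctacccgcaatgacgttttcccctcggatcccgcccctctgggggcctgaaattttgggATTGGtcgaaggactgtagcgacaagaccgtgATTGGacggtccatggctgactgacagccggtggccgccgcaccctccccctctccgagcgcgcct
In the full window *Top2a* had 2 CHR matches and 4 CCAAT matches, and *Top2b* had 2 CCAAT matches and 0 CHR matches. Of 33469 RefSeq promoter windows, 19.7% held CHR letters and 37.5% held CCAAT letters.

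Among the condensin genes, the core subunit *Smc2* was called higher. It read 9.98, 8.98 and 8.88 in replicating and 6.24, 6.34 and 7.44 in quiescent β-cells. The groups did not overlap, but the gap varied between preparations, with ratios of 3.74, 2.64 and 1.44. The limma log2 ratio was 2.61 with a standard error of 0.51 (6.09-fold; unadjusted p = 0.00352, adjusted p = 0.468). The quiescent values of preparations 1 and 2 lay little above 6.04 and 5.91, the dimmest signals that counted as well above background on those arrays. The probe lies at chr5:69607172-69607231 of rn4 on the plus strand.

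*Smc4*, the other core subunit, was called higher on 1 of its 2 probes and showed no detected change on the other. The dimmer probe, at chr2:159013946-159014005 of rn4, read 11.05, 11.19 and 10.64 in replicating and 7.21, 7.28 and 8.43 in quiescent cells. On this probe the ratios were 3.84, 3.91 and 2.21, for a limma log2 ratio of 3.32 with a standard error of 0.46 (9.99-fold; unadjusted p = 0.000686, adjusted p = 0.226). The brighter probe, at chr2:159001380-159001439, read 14.08, 14.53 and 13.84 in replicating and 14.51, 14.91 and 13.61 in quiescent cells. The groups overlapped there, and the ratio was -0.19 with a standard error of 0.33 (limma unadjusted p = 0.585). Within preparations the dimmer probe's ratio exceeded the brighter probe's by 4.27, 4.29 and 1.98. The probes are annotated to different transcripts, 12566 bases apart on the chromosome.

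The first 30 of 60 bases of each *Smc4* probe are shown, as spotted, because the probes gave such different ratios. Capitals mark 2 stretches of 10 letters of the brighter probe that were picked after the values were seen and that recur on other probes; the dimmer probe was not searched.
Smc4 brighter probe: TTAGCTCAGTccctggCCCTGGGTTCagtc
Smc4 dimmer probe: tttgcaaagagtaggcgaactggacaaaat
One or other stretch occurred in 15 other probes, whose log2 ratios ran from -1.16 to 0.86 with a median of -0.22. The mean log2 intensity of these 15 probes ran from 6.19 to 16.74 with a median of 12.53, against 8.12 over all probes. That of the brighter *Smc4* probe was 14.25. Which transcripts the brighter probe binds was not tested.

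The condensin I subunits pointed one way on the probes that carry their names or descriptions, with 1 exception. *Ncaph*, the kleisin of condensin I, read 11.48, 11.06 and 10.90 in replicating and 6.75, 6.38 and 7.01 in quiescent β-cells. Its ratios of 4.73, 4.67 and 3.88 were the largest of any member probe in each preparation, and limma gave 4.43 with a standard error of 0.35 (21.6-fold; unadjusted p = 4.22e-05, adjusted p = 0.0977, rank 15 of all probes by p). The quiescent value of preparation 2 lay little above 5.91, the dimmest signal well above background on that array. The probe lies at chr3:114651323-114651382 of rn4 on the minus strand. The further *Ncaph* probe, at chr3:114653797-114653856, did not show this. It read 9.13, 8.96 and 8.84 in replicating and 9.62, 11.40 and 8.09 in quiescent cells, with a ratio of -0.73 and a standard error of 0.65 (limma unadjusted p = 0.315). Its largest value was again on the quiescent array of preparation 2.

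The HEAT-repeat subunits of condensin I were read only by further probes. *Ncapd2* read 12.43, 12.65 and 12.16 in replicating and 10.09, 9.84 and 10.55 in quiescent cells, a ratio of 2.26 with a standard error of 0.37 (limma unadjusted p = 0.00158). *Ncapg* read 8.20, 8.13 and 8.02 in replicating and 6.25, 6.34 and 6.87 in quiescent cells, a ratio of 1.63 with a standard error of 0.34 (limma unadjusted p = 0.00443). As for *Smc2*, its quiescent values of preparations 1 and 2 lay little above the dimmest signals well above background, 6.04 and 5.91. Neither gene's groups overlapped, and both passed the thresholds of the call. With the further *Ncapg2* probe, 3 of the 4 further probes were called higher.

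Of the 3 condensin II subunits, *Ncapd3* and *Ncapg2* were called higher on each of their probes. *Ncapd3*, the HEAT-repeat subunit counterpart of *Ncapd2*, read 11.48, 12.05 and 11.45 in replicating and 9.62, 8.30 and 8.87 in quiescent cells on its brightest probe. The ratios were 1.87, 3.75 and 2.58, with a limma value of 2.73 and a standard error of 0.46 (6.63-fold; unadjusted p = 0.00167). Its other probe gave 2.59, 2.64 and 1.08 (limma 2.11, standard error 0.44, unadjusted p = 0.0045). That probe read 6.36 and 6.01 in quiescent cells of preparations 1 and 2. These values lay little above 6.04 and 5.91, the dimmest signals well above background there. *Ncapg2* read 10.64, 9.59 and 10.23 in replicating and 7.66, 7.84 and 8.91 in quiescent cells on the brighter of its named probes. The ratio there was 2.02 with a standard error of 0.43 (4.05-fold, limma unadjusted p = 0.00506). Its dimmer named probe gave 1.44 (standard error 0.38, limma unadjusted p = 0.0119), with groups that overlapped. The further *Ncapg2* probe, brighter than both, gave 3.13 (8.77-fold, standard error 0.35, limma unadjusted p = 0.000264), with groups that did not.

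*Ncaph2*, the kleisin of condensin II, was not called. Its probes read 10.58, 10.56 and 11.11, and 7.83, 7.91 and 8.07, in replicating cells. In quiescent cells they read 10.04, 9.53 and 10.005, and 6.79, 6.41 and 7.69. The groups did not overlap on either probe. The ratios were 0.89 (standard error 0.32, limma unadjusted p = 0.0381) and 0.97 (standard error 0.36, limma unadjusted p = 0.0427), both above 0 in all 3 preparations but under the log2 ratio of 1 that the call needs. The dimmer probe crossed that line under 4 of the alternatives, with ratios of 1.12 to 1.44, and it gave 0.52 with 75th percentile scaling and 0.66 with Feature Extraction's processed signal.

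**Figure D2:**
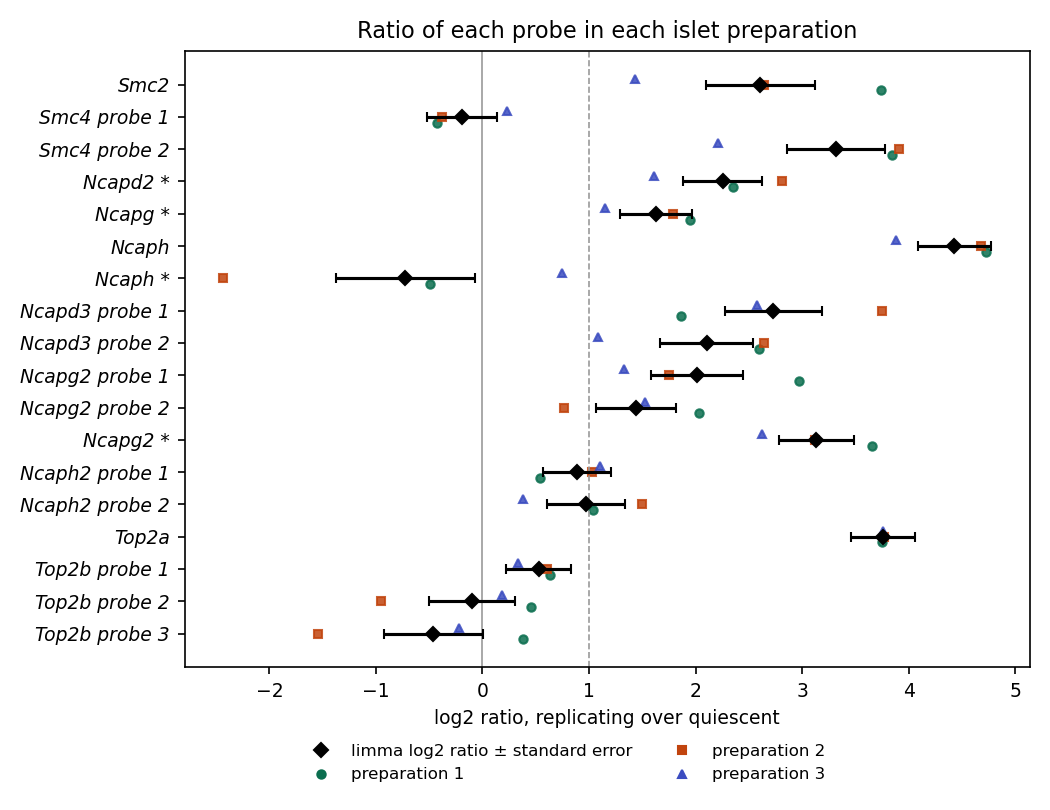
Log2 ratio of replicating over quiescent β-cells (horizontal axis) for each probe, with coloured symbols for the 3 preparations and black diamonds for the limma ratio with its standard error; asterisks mark the further probes and the dashed line is the log2 ratio of 1. *Top2a* gave 3.75 to 3.77 in the 3 preparations, whereas *Smc2* ran from 1.44 to 3.74 and the 3 *Top2b* probes lay at 0.53, -0.10 and -0.46.

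Counterpart subunits of both condensins were set side by side within preparations. *Ncaph* exceeded *Ncaph2* by 4.19, 3.65 and 2.78 on the log2 ratio scale (mean 3.54 ± 0.71, SD, n = 3, exact sign-flip permutation p = 0.25, adjusted 0.5). *Ncapd2* differed from *Ncapd3* by 0.48, -0.94 and -0.97 (mean -0.47 ± 0.83, exact permutation p = 0.5, adjusted 0.5, n = 3). *Ncapg* differed from *Ncapg2* by -1.03, 0.04 and -0.18 (mean -0.39 ± 0.56, exact permutation p = 0.5, adjusted 0.5, n = 3). Of these condensin pairs the kleisins alone differed the same way in every preparation on the probes used. That pair rests on the named *Ncaph* probe, which the further one did not match. The further *Ncaph* probe had ratios of -0.49, -2.43 and 0.75, below the 0.54, 1.03 and 1.10 of the brighter *Ncaph2* probe. The differences of the HEAT-repeat pairs changed sign between preparations and use probes outside the naming rule. Against the further *Ncapg2* probe (ratios of 3.66, 3.12 and 2.62), *Ncapg* (1.95, 1.79 and 1.15) was lower in every preparation.

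The response was not equally large in every preparation. Preparation 3 gave the smallest ratio on 7 of the 14 member probes, against 37% of all probes. Its quiescent array read highest among the quiescent arrays on 8 of the 14, against 37.9% of all probes. That held for 2 of the 6 probes not called and for 6 of the 8 called, a subset picked by its ratios. *Smc2*, both named *Ncapg2* probes, the dimmer *Ncapd3* and *Smc4* probes and the named *Ncaph* probe make up the 6 called ones. Without preparation 1, 2 or 3 the count of member probes called higher was 7, 8 and 9, and the 5 genes called by the brightest probe were 5 each time. Over the same omissions the count for all probes moved from 515 to 5092.

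**Figure D3:**
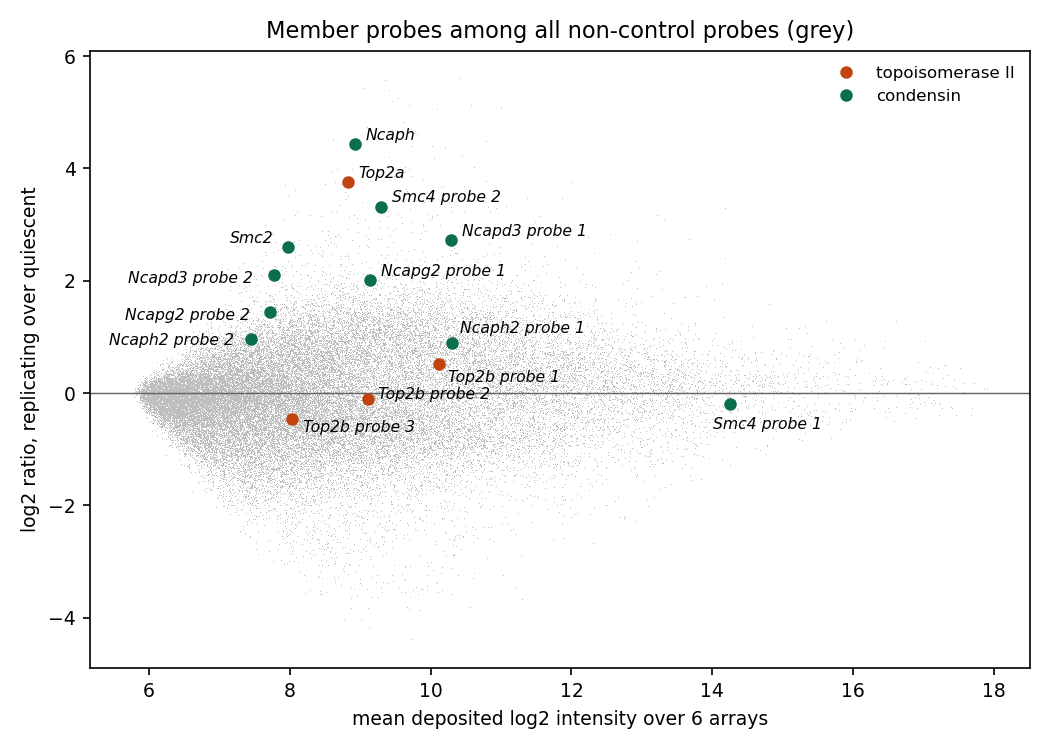
Log2 ratio of replicating over quiescent β-cells (vertical axis) against the mean deposited log2 intensity over 6 arrays (horizontal axis) for all non-control probes in grey, with condensin probes in green and topoisomerase II probes in orange. The 8 called probes have ratios of 1.44 to 4.43, and the brighter *Smc4* probe lies at a mean of 14.25 with a ratio of -0.19.

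CHR letters were found in the promoter windows of 6 of the 10 genes, against 19.7% of 33469 RefSeq promoter windows of the same length. The 6 were *Top2a*, *Smc2*, *Smc4*, *Ncapd2*, *Ncapg* and *Ncaph2*. CCAAT letters were found in 6 of 10, against 37.5%, and 5 of these had them on the opposite strand alone. The exception was *Smc2*, whose match lies on the gene strand 248 bases before the start. An E2F site, searched as TTTCCCGC, TTTCGCGC, TTTGCCGC or TTTGGCGC, was in 0 of 10, against 2.14%. *Ncaph*, *Ncapd3* and *Ncapg2* held none of the letters searched for the 3 motifs in this window, and other forms of the motifs were not searched. The kleisin pair, of which *Ncaph* was called on its named probe and *Ncaph2* was not, and *Smc4*, with 2 CHR matches, are shown in the same way.
Ncaph, GRCr8 chr3:134852503-134852667, minus strand: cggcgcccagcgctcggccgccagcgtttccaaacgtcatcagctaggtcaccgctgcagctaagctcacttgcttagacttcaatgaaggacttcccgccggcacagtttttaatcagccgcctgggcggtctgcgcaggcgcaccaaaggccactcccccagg
Ncaph2, GRCr8 chr7:122302414-122302578, plus strand: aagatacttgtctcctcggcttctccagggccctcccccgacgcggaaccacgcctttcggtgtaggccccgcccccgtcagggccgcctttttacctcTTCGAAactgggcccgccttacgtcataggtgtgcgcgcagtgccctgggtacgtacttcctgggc
Smc4, GRCr8 chr2:155550097-155550261, plus strand: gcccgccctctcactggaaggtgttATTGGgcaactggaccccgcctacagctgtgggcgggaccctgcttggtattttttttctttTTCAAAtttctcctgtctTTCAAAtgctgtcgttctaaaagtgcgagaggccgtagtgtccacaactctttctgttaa
*Ncaph* held no match, and *Ncaph2* held a CHR match 66 bases before the start. Whether the matches go with the ratios was not tested. A match is a run of letters and was not tested for binding.

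**Figure D4:**
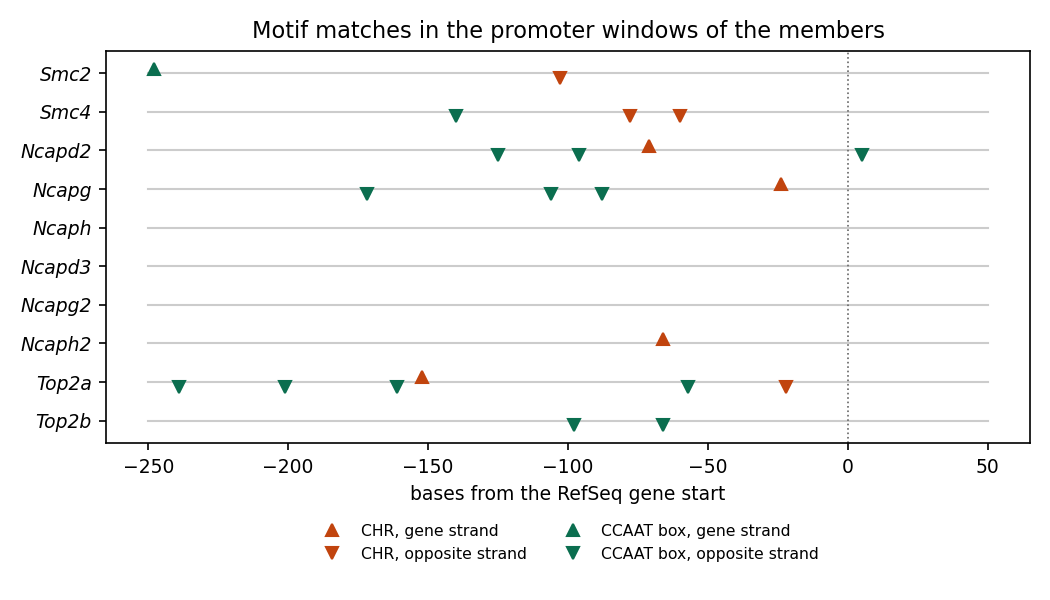
Position of CHR (orange) and CCAAT (green) letters in the promoter window of each gene, as the distance of the first base of the match from the RefSeq gene start (horizontal axis, bases), with upward triangles for the gene strand and downward triangles for the opposite strand. The CHR matches of 6 genes lie between 152 and 22 bases before the start, and *Ncaph*, *Ncapd3* and *Ncapg2* have no match.

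The genes whose pattern over the 6 arrays was most like *Top2a* were *Kif22* (Pearson's r 0.9994), *Cks1b* (0.9987), *Prc1* (0.9978), *Rad54l* (0.9976) and *Fkbp2* (0.9964), among 21001 genes well above background on all arrays. *Kif22* is a chromosome-arm kinesin, *Cks1b* a regulatory partner of cyclin-dependent kinases, *Prc1* a midzone microtubule bundler and *Rad54l* a recombination repair factor. Their log2 ratios were 4.65, 2.25, 3.94 and 2.51, and that of *Fkbp2* was 0.62. For *Smc2* the list was *Plk2* (0.9922), *LOC498912* (0.9897), *Brd3* (0.9885), *Smc1a* (0.9878) and *Smoc1* (0.9869). Their log2 ratios were 2.09, 0.49, 0.81, 1.24 and 0.73, and each had its largest ratio in preparation 1 and its smallest in preparation 3, as *Smc2* did. The 6 arrays are 3 pairs in 2 groups, so that a high r over them largely describes the group difference, and it is given as a description.

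The other genes of the pathway were taken from lists of known function. Of 20 genes of the other SMC complexes on the array, 5 were called higher and 0 lower, with a median ratio of 1.07 against -0.11 over all genes. By the brightest probe 4.26% of all genes were called higher and 4.59% lower. The list median was 1.11, 1.70 and -0.09 in preparations 1, 2 and 3, and the count called was 1, 5 and 10 without preparation 1, 2 and 3. The 5 called with all preparations included the cohesin subunits *Smc1a* (1.24), *Smc3* (2.02) and *Rad21* (2.05). The others were the cohesin regulator *Pds5b* (2.07) and sororin, *Cdca5* (1.52). Cohesin holds sister chromatids together, and *Smc3* gave uneven ratios of 1.83, 3.70 and 0.54. The loop-forming SMC5 and SMC6 complex was not called, with ratios of 0.87 for *Smc5* (limma unadjusted p = 0.169) and 1.44 for *Smc6* (limma unadjusted p = 0.0547).

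Of 13 other topoisomerases and strand-passage partners, 2 were called higher and 0 lower, with a median of 0.47 (0.51, 0.79 and -0.01 in preparations 1, 2 and 3). The shares over all genes were 4.26% higher and 4.59% lower. *Ercc6l*, the PICH translocase of ultrafine anaphase bridges, gave 2.30 (standard error 0.31, limma unadjusted p = 0.000661), and *Blm*, the Bloom helicase, gave 1.62 (standard error 0.35, limma unadjusted p = 0.00535). The topoisomerase genes themselves were not called, with ratios of 0.47 for *Top1*, 0.89 for *Top1mt*, 0.22 for *Top3a* and 0.29 for *Top3b*. *Topbp1*, a checkpoint scaffold that binds topoisomerase II, was not called either, at 0.65. Among the topoisomerase genes measured, *Top2a* alone passed the call.

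Of 25 regulators of chromosome condensation, 17 were called higher and 0 lower, with a median of 2.33, where 4.26% of all genes were called higher. The largest ratios were those of *Plk1* (5.12), the mitotic polo-like kinase, *Kif22* (4.65) and *Cdk1* (4.38), the mitotic cyclin-dependent kinase that phosphorylates condensin. The chromosomal passenger genes *Aurkb* (2.90), *Incenp* (2.72) and *Cdca8* (3.21) were called, and *Birc5* was not, at -0.93 with a standard error of 1.01 and a value of 10.64 on the quiescent array of preparation 2 against 6.55 and 6.63 on the other quiescent arrays. All 12 proliferation markers were called higher, with a median of 2.55, and the largest ratios were *Rrm2* (4.47), *Cdk1* (4.38) and *Mcm5* (3.62). *Cdk1*, *Ccnb1*, *Ccna2* and *Mki67* are in both lists, so these counts are not separate results. *Plk1*, *Kif22*, *Cdk1*, *Mastl*, *Nusap1*, *Rrm2* and *Mcm5* are among the study's top genes. That list was chosen on these same arrays, so their high values are not independent of it.

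Markers of the sorted cell type and of other islet cells were read on the same arrays. Beside the counts that follow, 4.26% of all genes were called higher and 4.59% lower by the brightest probe. The 16 β-cell identity genes were well above background on all arrays, with list means of 12.75 to 12.86 in replicating and 12.35 to 13.17 in quiescent samples, and 1 was called, *Mafa*, lower at -1.01. Of 16 fibroblast and stellate cell markers 6 were called higher, led by *Col6a3* (3.06), *Col3a1* (3.04) and *Col1a2* (2.93). Their list mean was 8.76 to 9.85 in replicating and 7.91 to 8.29 in quiescent samples, with 14 of 16 well above background on every array. Of 10 alpha cell markers 2 were called higher, *Gcg* (2.39) and *Gc* (1.86), with list means of 9.21 to 9.81 and 8.68 to 9.07. The alpha list median was 0.21, and 6 of the 10 ratios were above 0. Alpha markers that were not called included *Ldb2* (-0.76) and *Fap* (-0.27). Called higher were also 2 of 4 delta cell markers (*Sst* 1.74, *Rbp4* 1.49), 1 of 2 PP cell markers (*Ppy* 1.21), 2 of 8 duct markers (*Spp1* 2.09, *Epcam* 1.35), 2 of 11 immune markers (*Cd74* 1.48, *Cd68* 1.32) and 1 of 11 acinar markers (*Prss1* 1.56). The medians of the duct and immune lists were -0.21 and 0.38, and members that were not called included *Krt20* (-1.75), *Cftr* (-0.52), *C1qa* (-0.83) and *Tyrobp* (-0.71). Those of the delta and acinar lists were 1.03 and 0.24, with 3 of 4 and 7 of 11 ratios above 0. Below 0 were the delta marker *Ghsr* (-0.93) and, among the acinar markers, *Cela1* (-0.82) and *Cela3b* (-0.59). The list means did not overlap for delta cells (8.50 to 9.20 against 8.03 to 8.33) or PP cells (10.65 to 11.66 against 10.15 to 10.47) and overlapped for duct, immune, acinar and endothelial cells. Of 10 endothelial markers 0 were called in limma, and 0 had an unadjusted p of at most 0.05. The part of other cell types in the condensin and topoisomerase ratios was not tested.

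**Figure D5:**
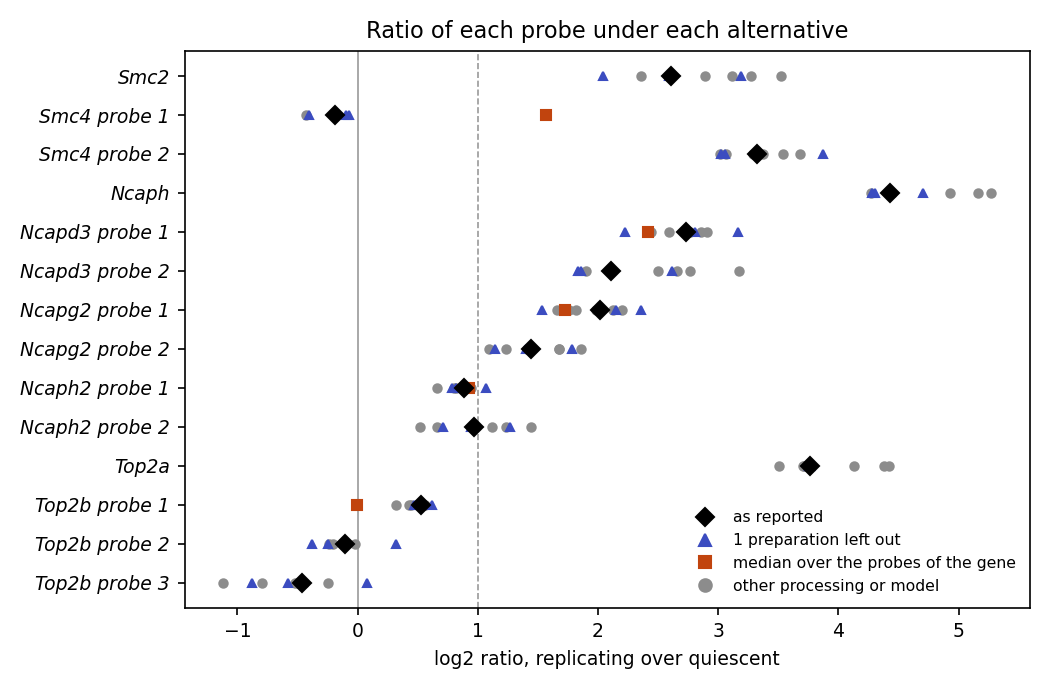
Log2 ratio of each member probe (horizontal axis) as reported (black diamonds), with 1 preparation left out (blue triangles), as the median over the probes of the gene (orange squares) and under the other processing and model alternatives (grey circles). *Top2a* stayed between 3.51 and 4.42 and *Ncaph* between 4.27 and 5.27, whereas the median over both *Smc4* probes was 1.56.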

How the data were processed

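RNA of the 6 samples was amplified by whole transcriptome amplification, labelled with Cy3 and hybridised by the authors to Agilent rat arrays. All lay on 1 slide and had 1 scan, so neither was a batch. The authors deposited spot intensity values from Feature Extraction 10.7.3.1, not normalized between arrays, with probe positions on rn4. The log2 values used here were deposited by the authors after normexp and quantile normalization. A recomputation at an offset of 50 had a Spearman's rho of 1 with them and differed by at most 0.116. The number of arrays limits the precision.

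Control spots were left out, spots marked as outliers (252 to 1583 per array) were set to missing and spots of a probe were averaged. limma 3.58.1 (R 4.3.3; files read with data.table, version 1.17.8) was fitted with a block for islet preparation, which the study's methods name, and Benjamini-Hochberg adjustment over all probes. The pairing comes from the series design, with 1 sample of each group per preparation. Arrays of 1 preparation deviated together across probes with an r of 0.0561, 0.242 and 0.258. The fit was tested on simulated data. A gene was represented by the probe of its array gene name with the highest mean over all arrays. For list genes, probes tied to the gene by description were eligible too. The members and all gene lists were chosen with earlier results of these data known. Named were all members, the 5 genes most like *Top2a* and *Smc2*, every topoisomerase gene and the 3 largest called ratios per list. Other list genes were named after their values were seen. Promoters are from RefSeq (GRCr8). Exon annotation on rn4 and protein sequences were not used here, so the planned protein comparison was not run.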

Additional observations from a re-analysis of the deposited data

How the results depend on the processing

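Under the alternatives run, 7 to 9 member probes were called higher. By the brightest probe 5 genes were called each time, and 6 by the median over a gene's probes. *Top2a*, the named *Ncaph* probe, *Smc2*, the dimmer *Smc4* probe, both *Ncapd3* probes and the brighter named *Ncapg2* probe kept direction and call in each. The dimmer *Ncapg2* probe missed the call with Feature Extraction's processed signal (1.23), 75th percentile scaling (1.09) and without preparation 1 (1.15). Reversed were the brighter *Smc4* probe (1.56) and the brightest *Top2b* probe (-0.0007) as medians over a gene's probes, the other *Top2b* probes without preparation 2 (ranges -0.38 to 0.32 and -0.88 to 0.079 over the preparations left out), and *Ncapg* minus *Ncapg2* at offset 0 (0.32), at offset 16 (0.0055), with the processed signal (0.24) and with cyclic loess (0.10). The cause was not tested.

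With the processed signal 662 probes were called higher and 3193 lower, of the other SMC complexes 3 and of the topoisomerase list 1; 75th percentile scaling called 5862 lower. These 2 scalings moved the median ratio of all probes to -0.71 and -0.39. An adjusted p under 0.05 was reached by 719 probes (5 member probes) with that scaling, 204 (4) with cyclic loess and 61 (2) with a variance trend. Without the replicate block 99 probes (2 member probes) reached it and 878 were called lower. Leaving out 1 preparation gave 515 to 5092 probes higher, 63 to 5628 lower, 0 to 84 (0 to 2 member probes) by adjusted p, and 1 to 10 of the other SMC complexes. CCAAT letters on the gene strand alone were in 1 of 10 promoters, against 20.9% of all promoter windows. CHR letters on that strand were in 4 of 10, against 11.6%.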
